A study of Rattus norvegicus with 6 samples.

Results

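The RT1 complex is the major histocompatibility complex (MHC) of the rat. The hippocampal arrays carried 44 probes with 30 gene names that start with RT1-, of 41012 non-control probes with 35581 names, and the members were taken by that name alone. They comprised 32 probes of 23 class I genes, 11 probes of 6 class II genes (RT1-Ba, RT1-Bb, RT1-Da, RT1-Db1, RT1-DOa and RT1-DOb) and 1 probe of RT1-Ke4. RT1-Ke4 is described as class I on the array, but RefSeq gives its locus as the zinc transporter gene Slc39a7, so it was kept apart. All male Wistar rats were 11 weeks old at the start and were either sedentary at rest on the treadmill (CONT), trained by mild exercise at 15 m/min (ME) or trained by intense exercise at 40 m/min (IE), with 60 min per day, 5 sessions per week and 6 weeks in total. Both exercise groups were habituated with slight electric shocks, and some IE rats received further shocks or were excluded when they refused to run. The hippocampus was collected 24 or 36 h after the last session per the sample records, and 2 days after it per the methods. Equal amounts of RNA from 5 rats were mixed to 1 pool per group, and 2 pools were hybridised together on a 2-colour array and again with the Cy3 and Cy5 dyes exchanged (a dye swap).

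This gave 6 arrays in 3 comparisons, ME vs CONT and IE vs CONT as exercise over sedentary and IE vs ME as intense over mild. By the methods, each comparison held 1 pool against 1 pool, and the mean ± SD of its 2 arrays was read as that of technical repeats. The sample descriptions, however, number the arrays of a swap as Pool 1 and Pool 2, and this number ran with the dye orientation. If these were separate pools, the SD would also hold their difference, and pool number and dye cannot be told apart. The p values of the scanner software compare 2 pools on 1 array and say nothing of the spread between rats. The 2 comparisons with CONT shared the CONT group and lay on one slide. ME vs CONT and IE vs ME shared the ME group, and IE vs CONT and IE vs ME shared the IE group. A positive ratio in ME vs CONT beside a negative one in IE vs ME is therefore not 2 separate observations. IE vs ME lay on another slide that was read with a later software version, so slide and comparison cannot be told apart. Wistar rats are outbred and the RT1 genes differ strongly between haplotypes, so the pools may have held different RT1 alleles. Whether allele content changed any ratio was not tested, because no haplotype typing was analysed here. In bulk tissue, a lower number of expressing cells and less RNA per cell cannot be told apart.

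MHC class I molecules pair a heavy chain with the light chain beta-2-microglobulin (B2m) and show peptides from inside the cell to CD8+ T cells. In the rat, RT1-A genes encode the classical class I chains, while RT1-C/E, RT1-M, RT1-N, RT1-S and RT1-T genes lie in the non-classical regions. Class II molecules are heterodimers of an alpha chain (RT1-Ba, RT1-Da) and a beta chain (RT1-Bb, RT1-Db1) that show peptides from outside the cell to CD4+ T cells, with RT1-DOa and RT1-DOb acting on peptide loading. In brain, class II is known mainly from microglia, perivascular and meningeal macrophages and dendritic cells. The invariant chain Cd74 guides class II molecules to the peptide-loading compartment, and the co-activator Ciita is the main switch of class II transcription.

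By the coordinates in the files (build rn3), 37 of the 44 probes lay on chromosome 20 between positions 1412672 and 5059470, with the class II probes between 4638931 and 4891416. Another 3 lay on unplaced sequence of chromosome 20, and 4 had no position. RefSeq accessions matched for 31 of the 44 probes. The class I probes were not fully distinct from each other. Each pair of probes was aligned without gaps and scored over its whole overlap. In 17 pairs the overlap was at least 25 bases at 80% identity or more. These pairs involved 15 class I probes and 0 class II probes. A shorter stretch inside an overlap was not scored alone, so the RT1-Ba probes shown further below are not among these pairs. In addition, 11 class I probes listed more than 1 RefSeq transcript, compared to 1 class II probe. Ratios of such class I probes may therefore mix RNA of several genes. The following 2 pairs show how near these probes were, with the bases that differ between the members of a pair in capitals.
RT1-CE1 (A_44_P513029): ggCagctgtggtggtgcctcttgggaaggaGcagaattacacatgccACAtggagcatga
RT1-CE12 (A_44_P313661): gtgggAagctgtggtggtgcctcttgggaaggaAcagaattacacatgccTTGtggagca
RT1-A2 (A_44_P184753): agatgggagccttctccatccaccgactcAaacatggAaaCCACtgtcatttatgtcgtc
RT1-CE2 (A_44_P107372): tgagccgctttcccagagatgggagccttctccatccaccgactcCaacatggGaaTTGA

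The RT1-CE1 and RT1-CE12 probes overlapped by 57 bases with 5 mismatches, and the RT1-A2 and RT1-CE2 probes by 44 bases with 6 mismatches. RT1-Ba, RT1-Bb, RT1-Da and RT1-Db1 had 2 or 3 probes each. The 2 RT1-Ba probes differed at 5 of 30 bases in the stretch shown, again in capitals. The 3 RT1-Db1 probes and 1 of the RT1-Da probes are shown whole, since the array ratios of RT1-Db1 and RT1-Da depended on the probe.
RT1-Ba (A_44_P128248): tagctaCaGCaaaaTacaatttggaaatcC
RT1-Ba (A_44_P194167): tagctaTaATaaaaCacaatttggaaatcT
RT1-Db1 (A_44_P130516): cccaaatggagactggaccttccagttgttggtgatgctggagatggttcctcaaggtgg
RT1-Db1 (A_44_P130513): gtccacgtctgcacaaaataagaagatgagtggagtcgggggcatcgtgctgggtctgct
RT1-Db1 (A_44_P139882): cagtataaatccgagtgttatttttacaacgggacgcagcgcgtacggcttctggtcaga
RT1-Da (A_44_P367688): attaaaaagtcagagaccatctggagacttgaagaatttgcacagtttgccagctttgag

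Class II promoters are known to carry an X box bound by the RFX complex and a Y box, an inverted CCAAT element bound by NF-Y. RefSeq promoter windows (build GRCr8) were searched on both strands for CTGATTGG and for AGCAACNGA, letters chosen to stand for these boxes. CTGATTGG was in 5 of 6 class II windows and 7 of 17 class I windows, compared to 3.55% of all 27457 windows of the same length. AGCAACNGA was in 3 of 6 class II windows (RT1-Da, RT1-Db1 and RT1-DOb) and 1 of 17 class I windows (RT1-CE12), compared to 1.34% of all windows. The promoters of the 4 alpha and beta chain genes are shown with the matches in capitals, because their probes are the ones compared below.
RT1-Da, chr20:4515303-4515382, plus strand: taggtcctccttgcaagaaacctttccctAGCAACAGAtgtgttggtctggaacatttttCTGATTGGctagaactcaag
RT1-Db1, chr20:4560226-4560305, minus strand: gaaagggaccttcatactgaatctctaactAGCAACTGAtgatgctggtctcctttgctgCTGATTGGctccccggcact
RT1-Bb, chr20:4604163-4604242, minus strand: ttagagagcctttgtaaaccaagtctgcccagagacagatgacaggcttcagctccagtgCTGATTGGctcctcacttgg
RT1-Ba, chr20:4576951-4577030, plus strand: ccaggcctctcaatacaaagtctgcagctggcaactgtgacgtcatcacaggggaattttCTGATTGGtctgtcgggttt

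CTGATTGG ended 44 bases before the start site of RT1-Da, 75 before that of RT1-Db1, 56 before that of RT1-Bb and 38 before that of RT1-Ba. The 2 motifs did not overlap, with 22 bases between them in RT1-Da and 21 in RT1-Db1. A match is a match of letters, and binding was not measured.

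Most class I probes were farther above background than the class II probes, with overlap between the classes. Each probe was read in 12 channels (2 dyes on 6 arrays), and a reading counted as above background where the software marked it as well above background. Of the class I probes, 25 of 32 were above background in all 12 readings, 2 (RT1-CE10 and RT1-M2) in none, and 5 (RT1-A3, the second RT1-CE5 probe, RT1-M10-1, RT1-N1 and RT1-T24-2) in some. Of the class II probes, 4 of 11 were above background in all 12 readings: both RT1-Bb probes, RT1-Da (A_44_P991532) and RT1-Db1 (A_44_P130513). RT1-DOa and RT1-DOb were above background in none, and the other 5 class II probes in 1 to 10 readings. RT1-Ke4 was above background in all 12. Over the 318 RT1 spot readings, 1 was marked as an outlier and 0 were saturated. Over all spots of the arrays, 67.5% to 74.5% were above background in Cy3 and 78.5% to 85.5% in Cy5.

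The raw signal of RT1-CE16 was 55.7 (range 26.5 to 125) times its local background, given as the median and range of the 12 readings. For RT1-Cl (A_44_P554925) this ratio was 46.2 (range 30.6 to 93.6), for RT1-A2 (A_44_P184753) 37.6 (range 17.5 to 72.5) and for RT1-M3 35.9 (range 22.8 to 56.5). The highest class II medians were lower. They were 3.38 (range 2.86 to 5.66) for RT1-Bb (A_44_P500803), 3.21 (range 2.08 to 3.98) for RT1-Da (A_44_P991532), 2.67 (range 1.68 to 5.17) for RT1-Bb (A_44_P552452) and 2.03 (range 1.58 to 3.18) for RT1-Db1 (A_44_P130513). RT1-DOa had a median of 1.22 and RT1-DOb of 1.25. Of the class I medians, 23 of 32 were above the highest class II median and 9 were not, among them RT1-N3 with 2.23 and RT1-CE6 with 1.55, both above background in all 12 readings. Each value is that of a probe against its own background, and does not rank the genes by expression.

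**Figure D1:**
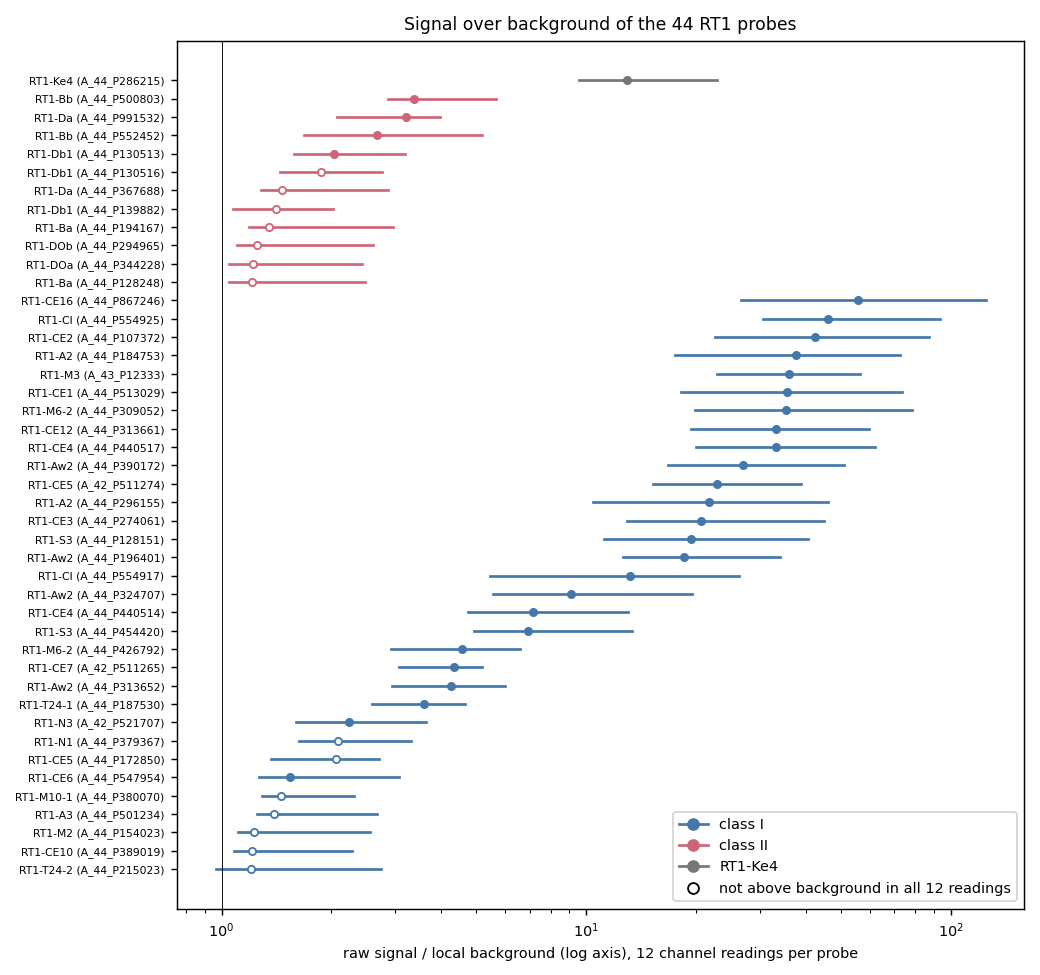
Raw spot signal divided by the local background (log axis) for the 44 RT1 probes, with the median as a point and the range of the 12 readings as a line. Open points mark probes not above background in all 12 readings. The class II medians end at 3.38, while class I probes reach a median of 55.7 for RT1-CE16 and 9 of 32 lie at or below 3.38.

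The methods give a fold range against CONT of 1.5 upward and 0.75 downward and a p threshold of 0.01. Here this range was applied to the dye swap of each comparison, IE vs ME included, so that a call needed Cy5/Cy3 of at least 1.5 on one array, at most 0.75 on the other and p below 0.01 on both. By this rule, 0 of the 44 RT1 probes were called in ME vs CONT, where 50 of 40922 tested probes were called (up: 45, down: 5), a share of 0.122%. In IE vs CONT, 0 RT1 probes were called, compared to 12 of 40957 probes (up: 10, down: 2) or 0.0293%. The IE vs ME arrays also had 0 RT1 calls, compared to 30 of 41009 probes (up: 5, down: 25) or 0.0732%. With shares this low, a count of 0 among 44 probes is near the background. At p below 0.05 on both arrays with the same pool brighter, RT1-Bb (A_44_P552452) in IE vs ME was the only RT1 probe, while 14 probes of the array passed upward and 50 downward.

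Without the p threshold, the fold range held for 0 RT1 probes in ME vs CONT (0.987% of all probes) and for 2 in each of the other comparisons. Those of IE vs CONT (0.667% of all probes) were RT1-Da (A_44_P367688), higher in IE, and RT1-DOa, lower in IE. RT1-DOa was not well above background in either pool on any array, so no fold is given for it. Those of IE vs ME (1.06% of all probes) were RT1-Bb (A_44_P552452) and RT1-N1, both lower in IE.

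Class I ratios stayed near 0 in all comparisons. Over the 32 class I probes, the median log2 ratio was 0.059 in ME vs CONT, 0.034 in IE vs CONT and 0.0039 in IE vs ME, beside 0, 0 and -0.0016 over all probes. The class I probes above background in all 4 readings of a comparison (27, 27 and 25 probes) had log2 ratios from -0.064 to 0.12 in ME vs CONT, from -0.10 to 0.12 in IE vs CONT and from -0.13 to 0.078 in IE vs ME. All these values lay inside the range from the 5th to the 95th percentile of all probes above background, which was -0.15 to 0.16, -0.15 to 0.14 and -0.15 to 0.18. Their mean was above 0 in 23 of 27, 23 of 27 and 14 of 25 probes (85.2%, 85.2% and 56%), beside 48.2%, 51.1% and 51.7% of all probes above background. The dye moved with this count. Cy3 was the brighter dye on both arrays for 81.5%, 88.9% and 68% of these class I probes, compared to 38.3%, 38.5% and 35.7% of all probes above background. The 2 arrays gave class I medians of opposite sign, with -0.089 and 0.20 in ME vs CONT, -0.076 and 0.19 in IE vs CONT and -0.084 and 0.069 in IE vs ME over the 32 probes. In ME vs CONT, 3 of these 27 class I probes were higher on both arrays and 0 lower, beside 13.6% and 15% of all probes above background. The counts in IE vs CONT were 0 higher and 1 lower of 27, beside 14.6% and 13.6%. Of the 25 in IE vs ME, 2 were higher and 2 lower on both arrays, beside 14.5% and 12.1%. The part of the dye in the class I medians was not tested.

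Over all probes above background, the arrays followed the dye more than the pool. Pearson's r between the Cy5/Cy3 log ratios of the 2 arrays, across probes that are no independent replicates, was 0.52 in ME vs CONT, 0.65 in IE vs CONT and 0.70 in IE vs ME, and so -0.52, -0.65 and -0.70 once the ratios were turned to the same pool. The direction of each ratio was taken from the dyes in the sample titles.

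**Figure D2:**
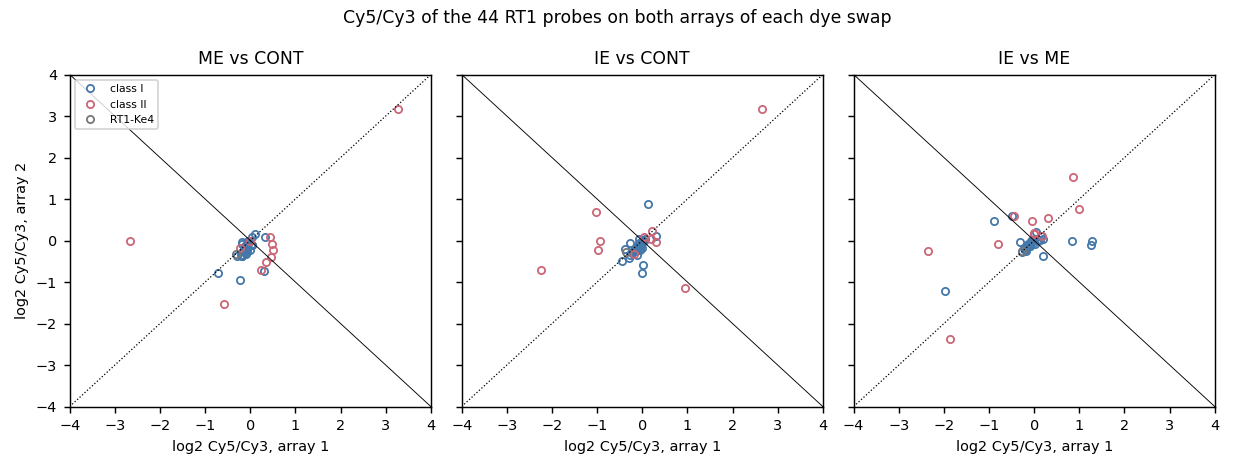
Log2 Cy5/Cy3 of the 44 RT1 probes on array 1 (x axis) and array 2 (y axis) of each dye swap, blue for class I, red for class II and grey for RT1-Ke4. Probes on the solid line followed the pool, and probes on the dotted line followed the dye. RT1-Db1 (A_44_P139882) stands at the upper right end of the dotted line in both comparisons with CONT, and most class I probes lie along that line close to 0.

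RT1-A2, a classical class I heavy chain, was measured by 2 probes. A_44_P184753 gave log2 ratios on array 1 and array 2 of -0.18 and 0.38 in ME vs CONT, -0.23 and 0.29 in IE vs CONT and -0.19 and 0.23 in IE vs ME. A_44_P296155 gave -0.086 and 0.24 in ME vs CONT, -0.060 and 0.18 in IE vs CONT and 0.017 and 0.085 in IE vs ME. Both probes turned sign between arrays in ME vs CONT and in IE vs CONT. RT1-A3 was above background in 5 of its 12 readings, in the Cy5 channel only on the slide with CONT, and gave 0.30 and 0.74 in ME vs CONT, 0.015 and 0.60 in IE vs CONT and 0.20 and 0.36 in IE vs ME.

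The RT1-C/E genes belong to the non-classical class I genes, and the RefSeq entry of the RT1-CE6 probe is a non-coding transcript. RT1-CE1 had log2 ratios of -0.10 and 0.16 in ME vs CONT, -0.15 and 0.24 in IE vs CONT and -0.14 and 0.081 in IE vs ME. RT1-CE12, whose probe is shown above beside that of RT1-CE1, had -0.070 and 0.23 in ME vs CONT, -0.14 and 0.24 in IE vs CONT and -0.12 and 0.11 in IE vs ME. In every comparison this pair of near-identical probes had the lower value on array 1. RT1-CE2 had -0.18 and 0.37 in ME vs CONT, -0.23 and 0.29 in IE vs CONT and -0.20 and 0.21 in IE vs ME. For RT1-CE3 the values were -0.13 and 0.23 in ME vs CONT, -0.17 and 0.22 in IE vs CONT and -0.17 and 0.25 in IE vs ME. RT1-CE16, the RT1 probe farthest above its background, had -0.092 and 0.22 in ME vs CONT, -0.12 and 0.19 in IE vs CONT and -0.092 and 0.12 in IE vs ME. None of RT1-CE2, RT1-CE3 and RT1-CE16 kept its direction on both arrays of any comparison. The 2 RT1-CE4 probes behaved alike, with -0.15 and 0.26 in ME vs CONT, -0.16 and 0.26 in IE vs CONT and -0.14 and 0.15 in IE vs ME for A_44_P440514. The values were -0.20 and 0.34 in ME vs CONT, -0.30 and 0.42 in IE vs CONT and -0.28 and 0.27 in IE vs ME for A_44_P440517.

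The first RT1-CE5 probe (A_42_P511274) gave 0.033 and -0.081 in ME vs CONT, 0.060 and -0.043 in IE vs CONT and 0.14 and -0.024 in IE vs ME. The second (A_44_P172850) gave -0.29 and 0.36 in ME vs CONT and -0.46 and 0.49 in IE vs CONT, and was above background in no reading of IE vs ME. The array means of both RT1-CE5 probes were between -0.024 and 0.038 in the comparisons with CONT. For RT1-CE6 the values were -0.71 and 0.79 in ME vs CONT, -0.013 and 0.020 in IE vs CONT and -0.32 and 0.046 in IE vs ME. RT1-CE7 gave -0.11 and 0.29 in ME vs CONT, -0.28 and 0.35 in IE vs CONT and 0.14 and -0.12 in IE vs ME. RT1-CE6 had the widest gap between arrays of the class I probes above background in ME vs CONT, with a mean of 0.040 ± 1.06 (SD of the 2 arrays). RT1-CE10 was not well above background in either pool, so its ratios are not given.

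Of the other class I genes, those at the ends of the class I range are given by array. RT1-S3 (A_44_P454420) had the largest class I mean in ME vs CONT and in IE vs ME among probes above background, with log2 ratios of 0.33 and -0.086 in ME vs CONT, 0.31 and -0.11 in IE vs CONT and 0.20 and -0.041 in IE vs ME. RT1-N3 had the largest in IE vs CONT, with -0.12 and 0.35, beside -0.12 and 0.14 in ME vs CONT and 0.078 and 0.010 in IE vs ME. In both genes the sign differed between arrays in IE vs CONT. RT1-T24-1 had -0.098 and 0.32 in ME vs CONT, -0.0078 and 0.19 in IE vs CONT and 0.030 and -0.22 in IE vs ME. RT1-Aw2 had 4 probes, of which A_44_P313652 had the lowest class I mean in IE vs CONT (-0.10 ± 0.23, from -0.27 and 0.064) and A_44_P324707 one of the 5 highest RT1 means there (0.083 ± 0.19, from -0.055 and 0.22). The 4 probes of this 1 gene name thus spanned both sides of 0. They lay at different places (rn3), with A_44_P313652 on unplaced sequence of chromosome 20 and A_44_P324707 at chr20:3412697-3412760. A_44_P196401 lay at chr20:5059401-5059470 and the remaining probe at chr20:2870412-2870471. Whether all of them measure the same gene was not tested. The RT1-Aw2 probe A_44_P196401 was printed 10 times per array, and its mean over the spots was 0.068 ± 0.066, 0.037 ± 0.083 and -0.030 ± 0.059 in the 3 comparisons.

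RT1-N1 was among the lowest class I probes in the comparisons with CONT and past the fold range in IE vs ME. Its log2 ratios were -0.17 and 0.045 in ME vs CONT and -0.074 and -0.031 in IE vs CONT. In IE vs ME they were -0.49 and -0.60 (-0.55 ± 0.081), with p values of 0.0956 and 0.0739. The processed signals there were 33.0 in IE and 46.3 in ME on array 1, and 28.0 and 42.6 on array 2, where IE was not above background. RT1-M6-2 (A_44_P426792) was on the low side in both comparisons with CONT, with -0.17 and 0.074 and -0.37 and 0.19. RT1-M3, which is known for presenting N-formylated peptides, had -0.049 and 0.023 in ME vs CONT, -0.026 and 0.11 in IE vs CONT and -0.075 and 0.026 in IE vs ME. The probes not listed here (RT1-Cl, RT1-M10-1, RT1-M2, RT1-S3 A_44_P128151, RT1-T24-2, RT1-M6-2 A_44_P309052 and 1 RT1-Aw2 probe) either had means between those extremes or were not above background throughout. RT1-Ke4 had -0.33 and 0.31 in ME vs CONT, -0.37 and 0.27 in IE vs CONT and -0.27 and 0.25 in IE vs ME, with a change of sign between arrays in each.

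**Figure D3:**
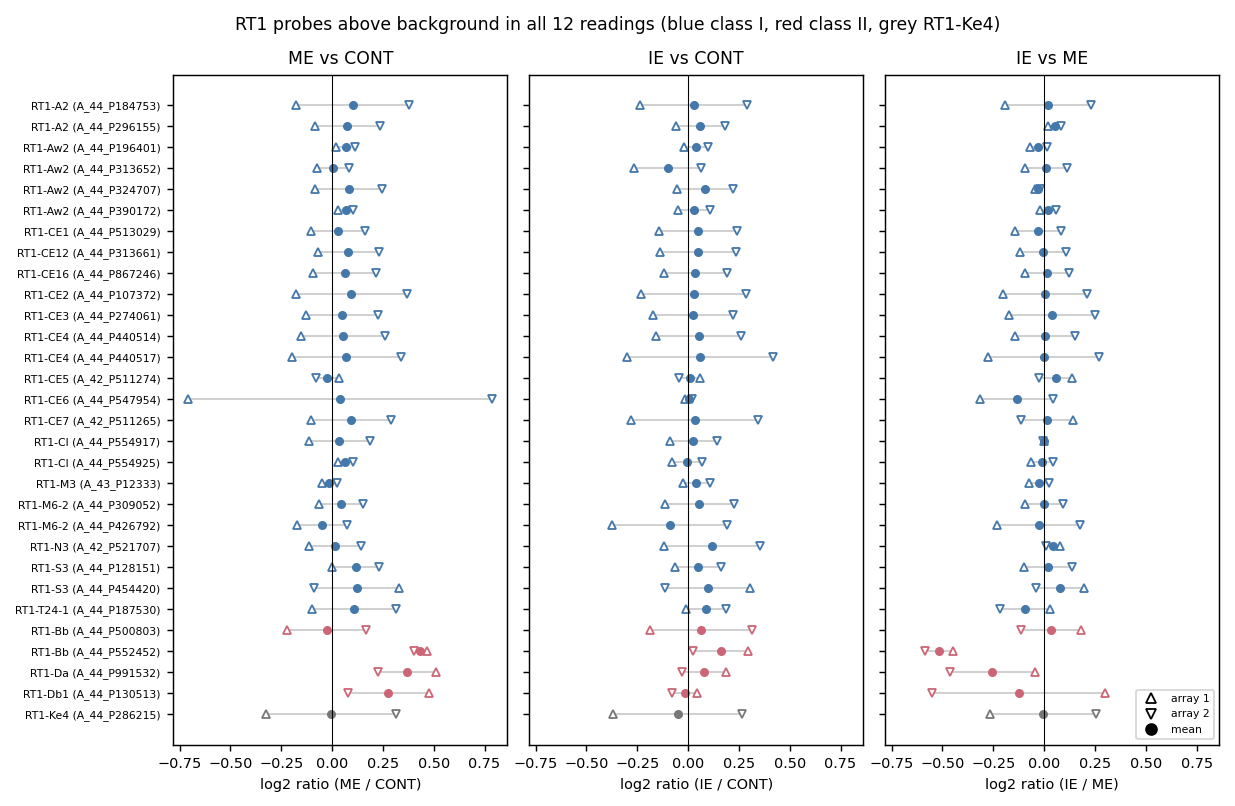
Log2 ratios of the 30 RT1 probes above background in all 12 readings, for ME over CONT, IE over CONT and IE over ME. Triangles are the 2 arrays of each dye swap and filled points their mean, with class I in blue, class II in red and RT1-Ke4 in grey. Most class I pairs straddle 0, while RT1-Bb (A_44_P552452) has both arrays above 0 in ME vs CONT (0.47 and 0.40) and below 0 in IE vs ME (-0.45 and -0.59).

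Class II chains mostly had positive ratios in ME vs CONT, none of them past the call rule. Over the 11 class II probes, the median log2 ratio was 0.28 in ME vs CONT, -0.017 in IE vs CONT and -0.12 in IE vs ME. By array it was 0.35 and 0.17 in ME vs CONT, 0.045 and 0 in IE vs CONT and 0 and -0.19 in IE vs ME. Of the 11, 5 were higher in ME on both arrays and 0 lower. Of the 5 class II probes above background in all 4 readings, 4 were higher in ME on both arrays, beside 13.6% of all probes above background. In IE vs CONT 1 of 5 was higher in IE on both arrays (14.6% of all probes), and in IE vs ME 2 of 4 were lower in IE on both arrays (12.1% of all probes). Since the 5 probes come from 3 genes and the methods describe 1 pool per group, these shares describe the arrays and were not tested. The ME vs CONT median depended on the background correction. It was 0.036 without background subtraction and 0.027 with the normexp correction, both with loess normalisation, and it stayed above 0.

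RT1-Bb, a class II beta chain, had the smallest spread between arrays of the class II probes above background in ME vs CONT with the probe A_44_P552452. Its processed signals were 93.5 in ME and 67.7 in CONT on array 1, and 91.6 and 69.3 on array 2. ME was thus the brighter pool under both dyes. The log2 ratios were 0.47 and 0.40, with a mean of 0.43 ± 0.044 or 1.35-fold and p values of 0.0331 and 0.0709. Against CONT, the IE arrays gave signals of 71.4 in IE and 58.2 in CONT on array 1, and 76.7 and 75.3 on array 2, with log2 ratios of 0.30 and 0.025. IE and CONT were nearly equal on array 2. On the direct arrays of IE vs ME, the signals were 94.9 in IE and 130 in ME, and 91.6 and 138. The log2 ratios were -0.45 and -0.59, a mean of -0.52 ± 0.098 or 1.43-fold lower in IE, with p values of 0.0459 and 0.0114. This was the largest fall of the RT1 probes above background in that comparison. Under the other ways of making the ratio, the ME vs CONT mean lay between 0.13 and 0.52 and the IE vs ME mean between -0.52 and -0.31.

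The second RT1-Bb probe, A_44_P500803, did not follow the first. Its log2 ratios were -0.22 and 0.17 in ME vs CONT, -0.19 and 0.31 in IE vs CONT and 0.18 and -0.12 in IE vs ME, with the arrays on opposite sides of 0 in each comparison. The 2 probes lie at different places of the gene, at chr20:4730760-4730810 for A_44_P552452 and chr20:4733189-4733248 for A_44_P500803 (rn3). The latter also listed 2 RefSeq transcripts, the former 1.

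RT1-Da, the class II alpha chain of the D molecule, had positive ratios in ME vs CONT with both of its probes. For A_44_P991532 the signals were 148 in ME and 104 in CONT on array 1, and 129 and 111 on array 2. The log2 ratios were 0.51 and 0.23, a mean of 0.37 ± 0.20 or 1.29-fold, with p values of 0.0165 and 0.282. IE vs CONT gave 0.19 and -0.030 and IE vs ME -0.046 and -0.46. The ME pool was again the brighter one on all 4 of its arrays, although by little on array 1 of IE vs ME. The probe A_44_P367688, shown above, was dim and above background in 7 of 12 readings. Its log2 ratios were 0.24 and 0.71 in ME vs CONT, 0.96 and 1.13 in IE vs CONT and -0.80 and 0.085 in IE vs ME. The IE vs CONT signals of this probe were 20.5 in IE and 10.6 in CONT on array 1, and 30.6 and 13.9 on array 2. The p values were 0.0564 and 0.0102. IE was above background on both arrays but CONT on array 2 only, so no fold is given. The brighter RT1-Da probe did not show a difference of this size, with the arrays on opposite sides of 0 in IE vs CONT as given above.

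RT1-Db1, the beta chain that pairs with RT1-Da, was measured by 3 probes. A_44_P130516 had signals of 47.7 in ME and 37.4 in CONT on array 1, and 53.9 and 37.9 on array 2. Its log2 ratios were 0.35 and 0.51, a mean of 0.43 ± 0.11 or 1.35-fold, with p values of 0.145 and 0.0471. IE vs CONT gave 0.22 and -0.24, with the arrays on opposite sides of 0. On the IE vs ME arrays its Cy5 signal was the brighter one both times, with turned ratios of 0.87 and -1.53, and only the Cy5 readings were above background. A_44_P130513 had signals of 59.7 in ME and 42.9 in CONT on array 1, and 55.4 and 52.5 on array 2. Its log2 ratios were 0.48 and 0.079 in ME vs CONT (0.28 ± 0.28, or 1.21-fold), 0.045 and -0.078 in IE vs CONT and 0.30 and -0.55 in IE vs ME. In ME vs CONT, both of these probes had the brighter signal in ME under both dyes, A_44_P130513 by little on array 2. With the other background corrections their ME vs CONT means fell as far as 0.096 for A_44_P130516 and 0.022 for A_44_P130513.

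The third RT1-Db1 probe, A_44_P139882, followed the dye and not the pool. On the ME vs CONT arrays the signal was 34.1 in Cy5 and 3.51 in Cy3 when ME carried Cy5, and 40.9 in Cy5 and 4.53 in Cy3 when CONT carried it. On the IE vs CONT arrays it was 43.8 in Cy5 and 7.01 in Cy3 when IE carried Cy5, and 48.8 and 5.46 when CONT carried it. Turned to exercise over CONT, the log2 ratios were 3.28 and -3.17 and, for IE, 2.64 and -3.16, with p values of 2.38e-05 and 1.74e-06 in ME vs CONT and 2.62e-06 and 8.61e-09 in IE vs CONT. The probe was above background only in the 4 Cy5 readings of that slide and in 0 readings of the other slide. Of all probes, 363 (0.887%) in ME vs CONT, 374 (0.913%) in IE vs CONT and 1713 (4.18%) in IE vs ME had p below 0.01 on both arrays with the same dye brighter. RT1-Db1 (A_44_P139882) was the only RT1 probe among them in both comparisons with CONT, and 0 RT1 probes were among those of IE vs ME. On 1 array alone this probe would have been called, higher on array 1 and lower on array 2 in both comparisons with CONT.

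RT1-Ba, the alpha chain that pairs with RT1-Bb, was near background. A_44_P128248 was above background in 1 and A_44_P194167 in 2 of 12 readings. For A_44_P194167 in IE vs ME, ME was above background on both arrays and IE on neither, with signals of 4.39 in IE and 22.6 in ME on array 1, and 20.4 and 17.2 on array 2. The log2 ratios were -2.36 and 0.25. Since IE was the brighter signal on array 2, no fold is given. RT1-DOa and RT1-DOb, the chains of the DO molecule that modulates peptide loading, were not well above background in any reading, so no fold is given for either.

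**Figure D4:**
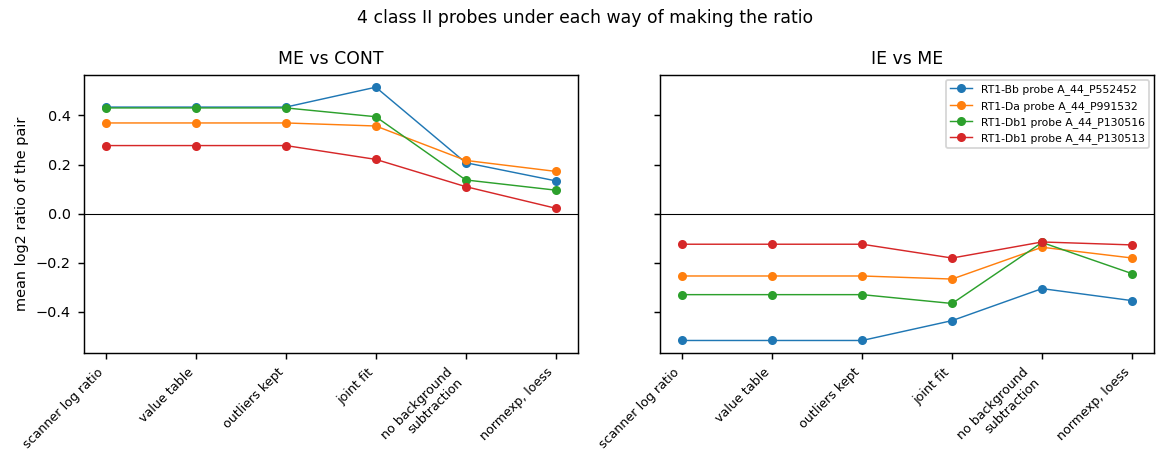
Mean log2 ratio of 4 class II probes in ME vs CONT and IE vs ME under each way of making the ratio from the scanner values (x axis). In ME vs CONT all 4 probes stay above 0 and fall toward it without background subtraction and with normexp, where RT1-Db1 (A_44_P130513) reaches 0.022. In IE vs ME all 4 stay below 0. The 4 probes are a choice. RT1-Bb (A_44_P500803), with means of -0.027 in ME vs CONT and 0.033 in IE vs ME, is not drawn.

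Genes that work with the RT1 chains were read from lists. The class I loading list had 16 probes of 13 genes, all above background, with 0 called and median log2 ratios of 0.0065 for ME and 0.0017 for IE against CONT and -0.022 for IE against ME, an order kept for all lists. In it, B2m, the class I light chain, had 4 probes with means from -0.0083 to 0.082 in ME vs CONT. The peptide transporter gene Tap1 gave -0.26 and 0.17 in ME vs CONT, -0.20 and 0.13 in IE vs CONT and 0.21 and -0.19 in IE vs ME. Its partner Tap2 gave 0.058 and 0.26 in ME vs CONT, 0.10 and 0.21 in IE vs CONT and -0.20 and 0.12 in IE vs ME, with the same sign on both arrays against CONT. Tapbp, which bridges the transporter and class I, gave -0.084 and 0.13 in ME vs CONT, -0.047 and 0.17 in IE vs CONT and -0.15 and 0.24 in IE vs ME. Psmb8, an immunoproteasome subunit, gave -0.0020 and 0.075 in ME vs CONT, 0.0020 and -0.034 in IE vs CONT and 0.22 and -0.23 in IE vs ME. The means of the whole list lay between -0.20 and 0.16 in ME vs CONT.

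The class II loading list had 13 probes of 10 genes with 0 called, and 11, 11 and 10 of them were above background, with medians over these of 0.039, 0.038 and -0.048. Cd74 had the highest mean of the list in ME vs CONT. Its log2 ratios were 0.30 and 0.38 in ME vs CONT (0.34 ± 0.055, or 1.26-fold), 0.055 and 0.22 in IE vs CONT and -0.052 and -0.21 in IE vs ME, with p values of 0.150 and 0.0718 in ME vs CONT. Cd74 thus had the same sign as RT1-Bb (A_44_P552452) and RT1-Da (A_44_P991532) on both arrays in ME vs CONT and in IE vs ME. The other class II probes above background in ME vs CONT differed from this. RT1-Bb (A_44_P500803) had opposite signs on the arrays in both comparisons. RT1-Db1 (A_44_P130513 and A_44_P130516) had the sign of Cd74 in ME vs CONT but opposite signs on the arrays in IE vs ME. The gene printed as Hla-dma, which RefSeq names RT1-DMa and which encodes the alpha chain of the class II editor DM, gave -0.052 and -0.055 in ME vs CONT, -0.055 and 0.071 in IE vs CONT and -0.0061 and 0.13 in IE vs ME. The list of MHC transcription factors had 13 probes of 8 listed names, of which Ciita and C2ta are 1 gene. It had 0 called and medians of -0.018, -0.022 and 0.021. Ciita was above background in 0 of 4 readings in both comparisons with CONT and in 2 of 4 in IE vs ME, so no fold is given. Nlrc5, the co-activator of class I genes, was not among the gene names of the array. The interferon response list had 29 probes of 23 listed names, of which Oas1 and Oas1a are 1 gene, with 0 called and medians of -0.020, -0.017 and -0.0096.

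Among the other genes of the MHC region, 27 probes of 23 listed names had 0 called and medians of 0.017, 0.018 and 0.018. The complement genes of this region had positive ratios in ME vs CONT, with 0.22 and 0.24 for Cfb, 0.11 and 0.41 for C4a and 0.050 and 0.31 for C2. All were below 0 on both arrays of IE vs ME, with -0.22 and -0.10, -0.51 and -0.13 and -0.051 and -0.25. These 3 genes were named after their values were seen. Of the 23 probes of this list above background, 5 were higher and 0 lower on both arrays in ME vs CONT. The shares of all probes above background were 13.6% and 15%. In IE vs ME, 2 of 23 were higher and 3 lower on both arrays, beside 14.5% and 12.1%.

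Cell type markers were read beside the class II values. The list of hippocampal neurons had 13 probes of 9 genes, of which 13, 13 and 12 were above background, with medians of -0.011, -3.2e-05 and 0.0039. Microglia (18 probes of 12 genes) had medians of -0.0020, 0.0016 and -0.0031 and 0 called. Perivascular and meningeal macrophages (8 probes of 5 genes) had medians of 0.20, -0.040 and -0.14 and 0 called, and of the 4 probes above background in ME vs CONT, 3 were higher in ME on both arrays. The mannose receptor Mrc1 (A_44_P635138) gave 0.53 and 0.28 in ME vs CONT and -0.57 and -0.28 in IE vs ME. The other Mrc1 probe (A_43_P18738) gave 0.34 and 0.024 in ME vs CONT and, with opposite signs on the arrays, -0.98 and 0.55 in IE vs ME, where 3 of 4 readings were above background. Pf4 gave 0.25 and 0.18 and -0.25 and -0.00051. Ms4a7 (A_44_P510949) turned sign between arrays in both, with 0.36 and -0.064 and 2.06 and -1.20, where 2 of 4 readings were above background in IE vs ME. The remaining 4 probes (F13a1, Cd163 with 2 and the other Ms4a7 probe) were not above background in all 4 readings of any comparison. The medians were -0.083, -0.072 and 0.29 for dendritic cells (5 probes), with 3, 1 and 2 probes above background. Over the probes above background they were 0.038, -0.096 and 0.30. The sign thus changed in ME vs CONT, where these 3 probes lay between -0.24 and 0.53. B cells had 4 probes and 0 above background, T cells 9 probes with medians of 0, -0.0034 and 0.061, and endothelium 14 probes with medians of 0.018, -0.014 and -0.088.

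The meninges list differed between pools in 2 of the 3 comparisons. Of its 14 probes of 10 genes, 9 were called higher in ME vs CONT and all 14 were higher in ME on both arrays, from 0.066 to 1.31, with a median of 0.92. In IE vs CONT 0 were called and the median was -0.0086. Against ME, 8 were called lower in IE and the median was -0.92. The collagen gene Col1a2 (A_43_P12783), for example, gave 1.25 and 1.18 in ME vs CONT, 0.085 and -0.098 in IE vs CONT and -1.21 and -1.22 in IE vs ME. The choroid plexus list (11 probes of 10 genes) had 3, 4 and 2 probes called, all higher in the first-named group, with medians of 0.13, 0.54 and 0.42. The meninges list thus had the sign of the class II median in ME vs CONT and in IE vs ME, and its part in the class II values was not tested.

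**Figure D5:**
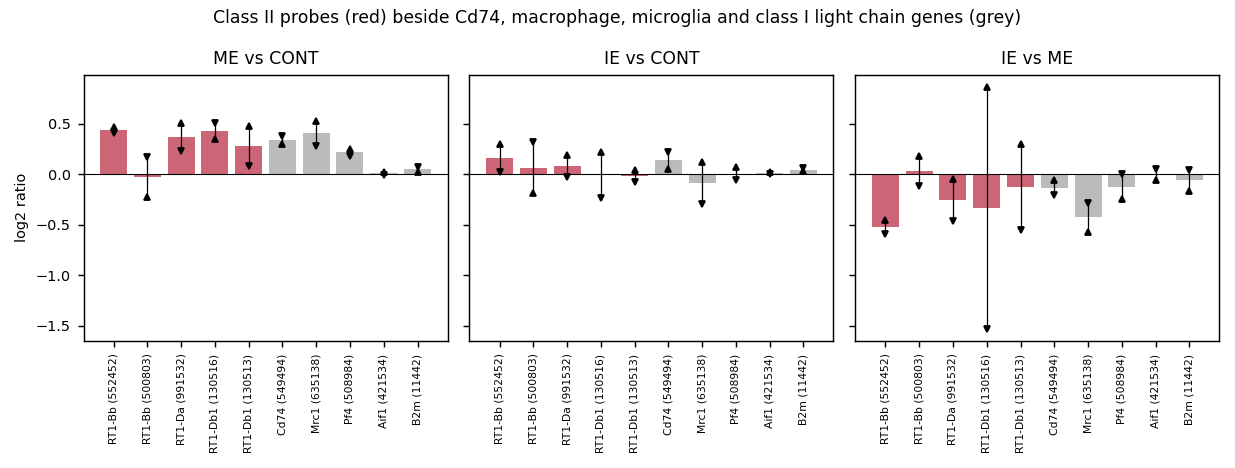
Log2 ratios (bars: mean of the dye swap, triangles: the 2 arrays) of 5 class II probes in red beside Cd74, the macrophage markers Mrc1 (A_44_P635138) and Pf4, the microglial marker Aif1 and the class I light chain B2m in grey, with the last digits of the probe names in brackets. In ME vs CONT 4 of the 5 class II probes, Cd74, this Mrc1 probe and Pf4 are above 0 on both arrays, while the arrays of RT1-Db1 (A_44_P130516) lie at 0.87 and -1.53 in IE vs ME. The macrophage and microglial probes drawn were chosen after their values were seen. Mrc1 (A_43_P18738) and Ms4a7 (A_44_P510949), which turned sign between arrays in IE vs ME, are not drawn. Aif1 is 1 of the 12 genes of the microglia list.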

How the data were processed

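Total hippocampal RNA was labelled with Cy3 or Cy5 and hybridised to 60-base rat genome arrays. The authors read the arrays with Agilent Feature Extraction (9.5.3.1 for the comparisons with CONT, 11.0.1.1 for IE vs ME, per the file headers), which subtracted background and normalised dyes by LOWESS. The deposited log10 ratios of Cy5 over Cy3, p-values of the software's error model, processed and raw signal intensities, and 0 or 1 flags were used. The sources used here state the p model but no depth, and only 2 arrays per comparison limit the precision. Log10 ratios were changed to log2, spots marked as outliers were left out, spots of a probe were averaged and each ratio was turned to exercise over CONT or IE over ME. Signal over background was the raw signal over the local background. For a call, the fold range in the methods was applied to both arrays of a swap. Cy5/Cy3 had to reach 1.5 on one array and fall to 0.75 or less on its dye-swap partner, each with p below 0.01. Class medians are descriptions with no test.

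RT1 probes were chosen by gene name, and the members and lists were chosen with earlier results of these data known. Values by array were given for members called or following the dye past the p threshold, and for the 5 largest rises and 5 largest falls among members above background in each comparison. They were also given for class II, RT1-A2, RT1-A3 and RT1-CE genes, except some probes near background, and for Cd74, Tap1, Tap2, Tapbp and Psmb8. B2m was given as a range of means in ME vs CONT, Ciita without ratios, and Nlrc5 was not on the array. From the lists with called probes (meninges and choroid plexus), only Col1a2 was named, as an example. Mrc1, Pf4, Ms4a7, Aif1 and 3 complement genes were named after their values were seen. Alternatives were the authors' value table, outlier spots kept, normexp (offset 50) or no background subtraction with loess, a joint limma fit of the 6 arrays, other call rules, 1 array only, 1 value per gene name and other member sets. The value table deposited by the authors holds log10 ratios, turned on the second array of each swap. Its r with the software's Cy5/Cy3 was from 0.90 to 1.00 on first arrays and from -1.00 to -0.81 on second arrays. The column medians were -0.029 to 0.024 after a change to log2, and how the value table treats spots near background is unknown. Sequences came from the probe column and from RefSeq (GRCr8). Python 3.11.15 (numpy 2.4.6, pandas 2.3.3, matplotlib 3.10.9) and R 4.3.3 (limma 3.58.1) were used. Of the steps, the call rule and the joint limma fit were tested on simulated data.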

Additional observations from a re-analysis of the deposited data

How the results depend on the processing

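The count of RT1 probes called was 0 in each comparison. In ME vs CONT it was 1 by a mean ratio of at least 1.5-fold with no p, and 1 on each array alone. In IE vs CONT it was 2 by the fold range with no p threshold, from the software's ratios and from the authors' value table alike, 3 by the mean ratio, and 1 to 2 on 1 array alone. In IE vs ME it was 2 by the fold range with no p threshold, 3 by the same rule on the value table, which added RT1-CE10, 4 by the mean ratio, and 1 to 2 on 1 array alone. The class II median of ME vs CONT (0.28) was 0.027 with normexp and loess and 0.036 without background subtraction. That of IE vs CONT (-0.017) was 0.062 over probes above background, 0.029 in the joint fit, -0.23 with 1 value per gene name, and from 0 to 0.045 on 1 array alone. Leaving out RT1-Db1 (A_44_P139882) or counting RT1-Ke4 as class I were alternatives chosen after seeing the data. On 1 array alone, the class II median was 0.17 to 0.35 in ME vs CONT and -0.19 to 0 in IE vs ME, and the class I median turned sign between arrays in every comparison. Over 9 alternatives other than 1 array alone, the class I median kept its sign in all 9 in ME vs CONT and in IE vs CONT and in 8 in IE vs ME, and the class II median in 9, 6 and 9. Among these alternatives, keeping outlier spots left every class median unchanged, and the value table left every class II median unchanged. The cause of the shifts under the other alternatives was not tested. No paired analysis was possible because the methods describe 1 pool per group, and the pool number in the sample descriptions ran with the dye orientation. Class II signals within a few times the background limit what the arrays can show for these genes.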

Other observations

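By RefSeq accession, 3 probes printed under other names belong to RT1 genes, which gives 47 members in place of 44. Hla-dma is RT1-DMa, described above. The 2 H2-T18 probes are RT1-T18, a non-classical class I gene. H2-T18 A_44_P358361 had log2 ratios of -0.12 and 0.23 in ME vs CONT, -0.099 and -0.016 in IE vs CONT and -0.090 and -0.50 in IE vs ME. H2-T18 A_44_P358358 had -0.22 and 0.32, 0.0078 and 0.50, and 1.31 and -0.054 in the same order, with 1 of 4 readings above background in IE vs ME. Neither probe was called in any comparison.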
